A study of Urocitellus parryii with 3 samples.

Results

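miR-140-3p is the microRNA cut from the 3′ arm of the miR-140 hairpin, and in liver of Urocitellus parryii, the arctic ground squirrel, most of its reads did not begin at the base given in miRNA catalogues. Its forms were chosen by their read sequence. A read counted as a member if it shared 18 bases with the mature miRNA from the listed first base or from a start up to 2 bases to either side. This gave 5641 of 576915 distinct reads, or 56317 of 17086590 reads in all. The miRNA itself was picked for its shifted starts with earlier results of these data known, so its start shares and levels are a description. The listed form, a form that starts 1 base later (+1) and a form that starts 2 bases later (+2) are set out below.

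Small RNA was sequenced from 3 stages with 1 library each, and every library was made from the mixed liver RNA of several animals. Early arousal and late torpor were hibernation-season animals, 4 in each pool, that carried body temperature transmitters and were kept at 4 h light and 20 h dark. Post-reproduction was the non-hibernating control, a pool of 6 summer animals at normal body temperature. The labels give its housing as 16 h light and 8 h dark, and only these animals are described as anaesthetised. Late torpor livers were taken on day 4 of a torpor bout, and hibernating animals had gone through at least 4 bouts. Whether that day also holds for early arousal is not stated in the labels. Neither genotype nor age is given for any group. Season, photoperiod, anaesthesia and stage cannot be told apart between either hibernation-season library and post-reproduction. Because RNA was pooled, the spread between animals is unknown, no test across animals could be run and p-values are left out. Intervals are 95% intervals that cover counting error only.

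MicroRNAs guide Argonaute proteins to messenger RNAs mainly by pairing of bases 2 to 8, called the seed. A form that starts at another base has another seed, and so can pair with other messages. In mammals miR-140 lies in an intron of Wwp2, a ubiquitin ligase gene, and is best known from cartilage, where mice lacking it have skeletal defects. Its 3p strand is abundant in many tissues. Forms of one miRNA that differ in their first base are called 5′ isomiRs.

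The most abundant insert of each start is printed 5′ to 3′ to show how the shift moves the seed. The sequences are written with T, as in the deposited reads, and capitals mark the seed.
listed start, ending at base 23: tACCACAGggtagaaccacggac
+1 start, ending at base 22: aCCACAGGgtagaaccacgga
+2 start, ending at base 22: cCACAGGGtagaaccacgga
Bases are counted from the listed first base throughout. The first base was U in the listed form, A in the +1 form and C in the +2 form. None of the 145 other miRNA sequences searched shared a seed with any of these forms.

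The +1 form was the main product of the arm in every library. It made up 74.8% of miR-140-3p reads in early arousal (74.2 to 75.4), 68.8% in late torpor (68.1 to 69.5) and 67.6% in post-reproduction (66.9 to 68.2). The listed form held 22.6% in early arousal (22.1 to 23.2), 29.0% in late torpor (28.3 to 29.7) and 30.1% in post-reproduction (29.5 to 30.8). Early arousal thus stood apart from both other libraries, which lay close to each other.

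In read counts, the +1 form had 14382 reads in early arousal, 11327 in late torpor and 13934 in post-reproduction. The listed form had 4356 reads in early arousal, 4770 in late torpor and 6210 in post-reproduction. The listed form was therefore highest in post-reproduction, whereas the +1 form had fewest reads in late torpor. The +2 form had 489, 362 and 471 reads in early arousal, late torpor and post-reproduction, which was 2.54%, 2.20% and 2.28% of the miRNA. Starts 1 base early were rare, with 6, 7 and 3 reads in the same order. The earliest start searched, 2 bases before the listed one, had 0 reads in each library, and the limit set by 3 reads is 0.0156% of the miRNA in early arousal, 0.0182% in late torpor and 0.0146% in post-reproduction. The exact interval reaches somewhat higher, to 0.0192%, 0.0224% and 0.0179%. The spread of starts thus lay on the later side of the listed base.

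Levels were compared as normalised read counts (CPM) relative to all miRNA reads at their listed starts, with a correction for composition between the libraries. Reads at shifted starts were scaled by this total but are not part of it. The +1 form stood at 2620.0 CPM in early arousal, 2155 CPM in late torpor and 2667 CPM in post-reproduction. The listed form stood at 794 CPM in early arousal, 908 CPM in late torpor and 1189 CPM in post-reproduction. Between early arousal and post-reproduction, levels were thus close in the +1 form and furthest apart, as a ratio, in the listed form. With all starts summed, miR-140-3p had 3504 CPM in early arousal, 3133 CPM in late torpor and 3946 CPM in post-reproduction. By that sum it ranked at place 9, 10 and 10 among 122 miRNAs with reads in early arousal, late torpor and post-reproduction. Counted from the listed base alone it ranked at place 24, 21 and 21. Both rankings cover only the miRNA sequences searched, so an abundant miRNA outside them would not be counted. In whole-liver RNA, fewer cells of a type and less RNA per cell cannot be told apart.

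**Figure D1:**
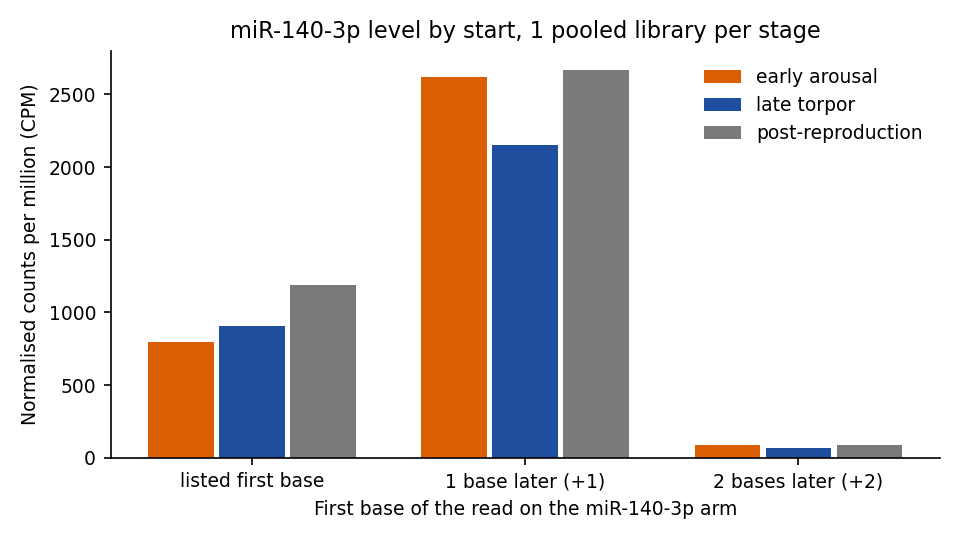
Normalised level in CPM (y axis) of miR-140-3p reads that begin at the listed base, 1 base later and 2 bases later (x axis), with 1 bar per pooled library and no error bar because each stage has 1 library. The +1 bars stand at 2620.0, 2155 and 2667 CPM in early arousal, late torpor and post-reproduction, above the listed bars at 794, 908 and 1189 CPM.

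Early arousal against post-reproduction sets the rewarming liver beside the summer liver. The listed form was lower in early arousal, with a ratio of 0.668 (0.642 to 0.694), just short of a 1.5-fold difference. The +1 form had a ratio of 0.982 (0.960 to 1.01) and the +2 form one of 0.988 (0.869 to 1.12), and both intervals held 1. The level of the listed form in early arousal minus that in post-reproduction was -395 CPM, and the same difference for the +1 form was -47.0 CPM. Most of the difference in the summed miRNA, whose ratio was 0.888 (0.871 to 0.905), therefore lay in the listed form. Among 80 other miRNAs with at least 100 reads over both libraries, 9 were at least 1.5-fold lower at their own listed start, which is 11.2%, and 6 were at least 1.5-fold higher, which is 7.5%. Their median log2 ratio was -0.0032, against -0.58 for listed miR-140-3p. Under plain scaling to placed or miRNA reads, the log2 ratio of the +1 form was 0.046 and 0.066 instead of -0.026, so no direction is given for it.

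The number of +1 reads per listed read does not depend on scaling between libraries. It was 3.30 in early arousal and 2.24 in post-reproduction, a quotient of 1.47 (1.41 to 1.54). The share of the +1 form differed by 7.20 percentage points (6.31 to 8.08). That difference exceeds counting error with each read taken as independent, but how it compares with the spread between animals was not measured.

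Late torpor against post-reproduction sets the torpid liver beside the same summer library. Here both main forms were lower in late torpor, and by like amounts. The listed form had a ratio of 0.764 (0.735 to 0.793), the +1 form one of 0.808 (0.788 to 0.828) and the +2 form one of 0.764 (0.664 to 0.878). None of these reached 1.5-fold. Of 81 other miRNAs, 5 were at least 1.5-fold lower, or 6.17%, and 4 at least 1.5-fold higher, or 4.94%. Their median log2 ratio was -0.042, against -0.39 for the listed form and -0.31 for the +1 form. There were 2.37 reads of the +1 form per listed read in late torpor and 2.24 in post-reproduction, a quotient of 1.06 (1.01 to 1.11). The +1 share differed by 1.21 percentage points (0.254 to 2.16). Since this comparison and the preceding one use the same post-reproduction library, anything particular to that library enters both.

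Early arousal against late torpor covers a change within the hibernation season, at one photoperiod, and leaves the summer library out. The main forms lay on opposite sides of 1. The +1 form was higher in early arousal, with a ratio of 1.22 (1.19 to 1.25), while the listed form was lower, with a ratio of 0.874 (0.839 to 0.911). The +2 form, like the +1 form, was higher, at 1.29 (1.13 to 1.49). The level in early arousal minus that in late torpor was 465 CPM for the +1 form and -114 CPM for the listed form. None of these reached 1.5-fold, which 12 of 81 other miRNAs did (14.8%), 6 of them lower (7.41%) and 6 higher (7.41%). There were 3.30 reads of the +1 form per listed read in early arousal and 2.37 in late torpor, a quotient of 1.39 (1.33 to 1.46). The +1 share was 5.99 percentage points higher in early arousal (5.05 to 6.92). The lower level of the listed form depends on scaling, since its log2 ratio was -0.19 as reported but -0.068 relative to all placed reads and -0.027 relative to miRNA reads without the correction, where its interval held 0.

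Next, the 3′ ends were examined. The choice of members fixed only that 18 bases matched from the start, so it set the shortest insert and not where longer ones ended. The adapter was found in 91.4% of miR-140-3p reads in early arousal, 93.2% in late torpor and 88.9% in post-reproduction. In these reads the end of the insert could be read. It was found less often in +1 reads, in 12926 of 14382, 10372 of 11327 and 12089 of 13934 in the same order. Listed reads had it in 4189 of 4356, 4642 of 4770 and 5806 of 6210. Mismatches made up 1.80%, 1.54% and 3.13% of adapter bases, most in post-reproduction. Their part in the end and tail values was not tested. Reads of the +1 start ended, as far as they matched the genome, at base 22 in 71.5% of cases in early arousal, 72.4% in late torpor and 71.5% in post-reproduction. From the listed start only 49.9% ended there in early arousal, 50.02% in late torpor and 48.4% in post-reproduction. Listed reads more often reached base 23, with 22.4%, 23.998% and 25.8% in early arousal, late torpor and post-reproduction, where the +1 reads had 10.7%, 11.7% and 12.8%. The end profile thus differed far more between the starts than between the stages. The mean insert length was 22.97 nt in early arousal, 22.95 nt in late torpor and 22.92 nt in post-reproduction for the listed form. For the +1 form it was 21.9 nt in each library, close to 1 base shorter.

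**Figure D2:**
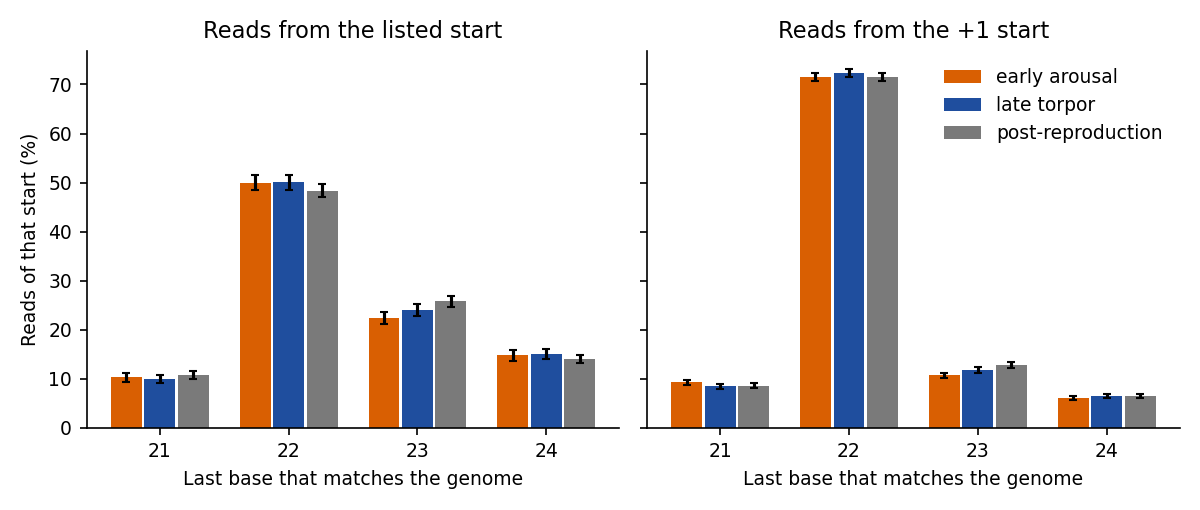
Percent of reads with a found adapter (y axis) by the last base that matches the genome, counted from the listed first base (x axis), for the listed start and the +1 start. Bars are the 3 libraries with exact binomial 95% intervals, and base 22 holds 71.5%, 72.4% and 71.5% of +1 reads in early arousal, late torpor and post-reproduction, against 49.9%, 50.02% and 48.4% of listed reads.

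The start shift was also tabulated within reads of the same 3′ end. Among reads ending at base 22, the +1 start held 79.4% in early arousal, 74.6% in late torpor and 73.7% in post-reproduction. At base 23 it held 58.2%, 51.1% and 49.9% in early arousal, late torpor and post-reproduction. At base 21 these shares were 72.6%, 64.7% and 61.6%, and at base 24 they were 53.8%, 47.7% and 47.1%. Early arousal was above post-reproduction in 4 of 4 end classes, and above late torpor in 4 of 4. Reads were also split by end and added bases together, into 13 classes with at least 100 reads each. Early arousal was then above post-reproduction in 13 of 13 classes and above late torpor in 12 of 13, while late torpor was above post-reproduction in 8 of 13. The higher +1 share of early arousal was therefore present at each of these 4 ends. Inserts were not split by length here. These classes come from the same libraries and are not replicates.

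**Figure D3:**
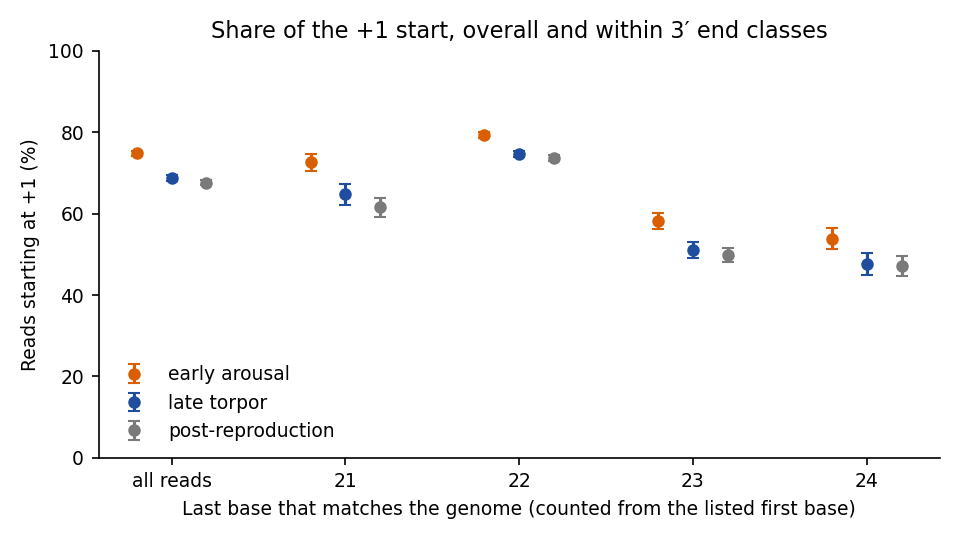
Percent of miR-140-3p reads that start at +1 (y axis), over all reads and among reads whose last base matching the genome is base 21, 22, 23 or 24 (x axis), with exact binomial 95% intervals. Early arousal lies above late torpor and post-reproduction in each class, for example at 79.4% against 74.6% and 73.7% at base 22.

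Many miR-140-3p inserts carried bases at their 3′ end that do not match the genome. Such tails are added to mature miRNAs by terminal nucleotidyl transferases, mostly as A or U. In early arousal, 53.4% of +1 reads and 41.2% of listed reads had one. For late torpor the values were 51.3% of +1 reads and 38.0% of listed reads, and for post-reproduction 49.8% and 38.0%. In the tails as counted, the starts differed in U more than in A. The genome has A at bases 22 and 24. An A added after base 21 or 23 was therefore counted as a genome match and not as a tail, whereas an added U there was not. The A and U shares are thus not like measures, and the starts, which differ in their ends, can differ in the A tails missed. A tail of U alone was on 21.6% of +1 reads in early arousal, 21.7% in late torpor and 20.3% in post-reproduction, against 11.96%, 11.1% and 11.3% of listed reads. A tail of A alone was on 19.3%, 19.8% and 19.8% of +1 reads and on 19.03%, 18.6% and 18.6% of listed reads. A sequencing error near the end of an insert is read as a tail too. At base 19 of the read, 1.67% of +1 reads departed from the genome in early arousal, against 0.309% in late torpor and 0.431% in post-reproduction. Listed reads had like values, 1.77%, 0.273% and 0.580% in the same order, so the excess in early arousal was not particular to the +1 form. The part of such departures in the tail shares was not tested.

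**Figure D4:**
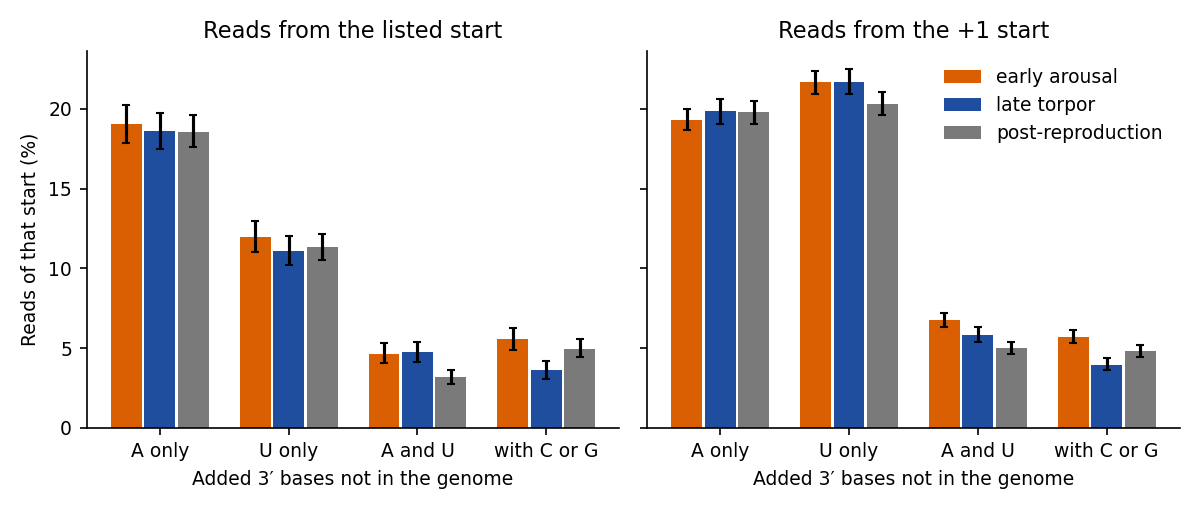
Percent of reads with a found adapter (y axis) whose 3′ end carries added A, added U, both, or bases that include C or G (x axis), for the listed and the +1 start, with exact binomial 95% intervals. Added U alone stands at 21.6%, 21.7% and 20.3% of +1 reads in early arousal, late torpor and post-reproduction, and at 11.96%, 11.1% and 11.3% of listed reads.

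The most abundant inserts show start, end and tail together. They are the 6 with most reads over the 3 libraries, less those printed above.
+1 start, base 22 and U: aCCACAGGgtagaaccacggat
+1 start, base 22 and A: aCCACAGGgtagaaccacggaa
listed start, ending at base 22: tACCACAGggtagaaccacgga
+1 start, ending at base 23: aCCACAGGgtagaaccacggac
The untailed +1 insert ending at base 22 led each library, with 3921 reads in early arousal, 3248 in late torpor and 3868 in post-reproduction. The U-tailed insert had 1865, 1506 and 1694 reads and the A-tailed insert 1656, 1375 and 1647 in the same order. Their ratios of early arousal to post-reproduction were 0.965 for the untailed, 1.048 for the U-tailed and 0.957 for the A-tailed insert, and all 3 intervals held 1.

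Inserts of the listed start differed more. The one ending at base 23 had 867 reads in early arousal, 1054 in late torpor and 1382 in post-reproduction. Its ratio of early arousal to post-reproduction was 0.597 (0.548 to 0.650). The listed insert ending at base 22 had 864, 985 and 1189 reads in early arousal, late torpor and post-reproduction, and the same ratio was 0.692 (0.633 to 0.756). The +1 insert ending at base 23 had 994, 873 and 1144 reads, with a ratio of 0.827 (0.759 to 0.901). At either end, base 22 or base 23, the listed insert thus had a lower ratio than the +1 insert.

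All member reads were placed at a single site, on the plus strand of GeneScaffold 5729, and none at several positions. The genome build is not given in the sources used here, and the scaffold carries no gene annotation in the file. The listed form lay at bases 142291 to 142313, and reads of the +1 form began at 142292. The other arm, miR-140-5p, was nearly absent. Its form is printed to show that it was looked for at its own position, 39 bases before the listed 3p start.
miR-140-5p: cAGTGGTTttaccctatggtag
It lay at bases 142252 to 142273 and had 4 reads in early arousal, 1 in late torpor and 1 in post-reproduction. With 56317 reads from one arm and 6 from the other, the 3p arm was the arm recovered from this hairpin in all 3 libraries.

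To place the shift among other miRNAs, starts within 2 bases of the listed one were counted for each. Of 55 miRNAs with at least 1000 reads over the 3 libraries, miR-140-3p had the second largest share of shifted reads, at 77.4% in early arousal, 71.0% in late torpor and 69.9% in post-reproduction. Above it was miR-142-5p, a leukocyte miRNA, with 80.7%, 81.4% and 84.4%. Next came miR-101-3p with 52.0%, 50.5% and 49.96% and miR-9-3p, a neural miRNA, with 24.6%, 35.4% and 32.6%. In miR-101-3p nearly all shifted reads began 1 base early, the other direction from miR-140-3p.

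The change in shifted share was then set beside that of the 40 other miRNAs with at least 1000 reads in each library. Of these, 0 differed by 5 percentage points or more in any of the 3 comparisons, which is 0% in each. They ranged from -3.72 points for miR-142-5p to 3.68 points for miR-124-3p between early arousal and post-reproduction, where miR-140-3p had 7.47. Most of them had little room for such a change, with a median shifted share of 0.442% in early arousal, 0.406% in late torpor and 0.351% in post-reproduction. Among 29 miRNAs with fewer reads, but at least 100 in each library, changes of this size did occur. Between early arousal and post-reproduction, the shifted share was 7.32 points higher for miR-10a-5p (3.06 to 11.8), 7.24 points higher for miR-126-3p (-0.328 to 14.9), an endothelial miRNA, and differed by -7.99 points (-12.1 to -3.91) for miR-9-3p. Between early arousal and late torpor, it differed by 8.48 points (1.20 to 15.7) for miR-126-3p and by -10.7 points (-14.8 to -6.67) for miR-9-3p. Changes of at least 5 points were thus also found in other miRNAs, in both directions. Between early arousal and post-reproduction, only that of miR-9-3p was larger in size than the 7.47 points of miR-140-3p. The higher shares of miR-10a-5p and miR-126-3p fell just short of it. Between early arousal and late torpor, miR-140-3p had 6.32 points. There miR-9-3p and miR-126-3p both differed by more, the latter on 255 and 260 reads.

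The odds of a shifted against a listed start allow for the little room that a small share has. Of 14 other miRNAs with at least 100 reads of each kind per library, the odds ratio of early arousal to post-reproduction had a median of 1.11 and ranged from 0.675 for miR-9-3p to 1.66 for miR-128-3p. miR-140-3p stood at 1.47 (1.41 to 1.54), with 1 of the 14 above it. For late torpor against post-reproduction it stood at 1.06, near the median of 1.08, with 8 above it. For early arousal against late torpor it stood at 1.39, with a median of 1.06 for the others and 0 of 14 above it. The nearest of the 14 was let-7a-5p at 1.34. These places hold only among the 14, because miRNAs with few reads of either kind were left out. Among those left out were miR-10a-5p and miR-126-3p, named above. The shifted share of miR-24-3p, also left out, was 3.80% in early arousal, 3.04% in late torpor and 1.79% in post-reproduction. That of miR-99a-5p went the other way, at 1.95%, 2.45% and 2.75%. No odds ratio was computed for these.

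**Figure D5:**
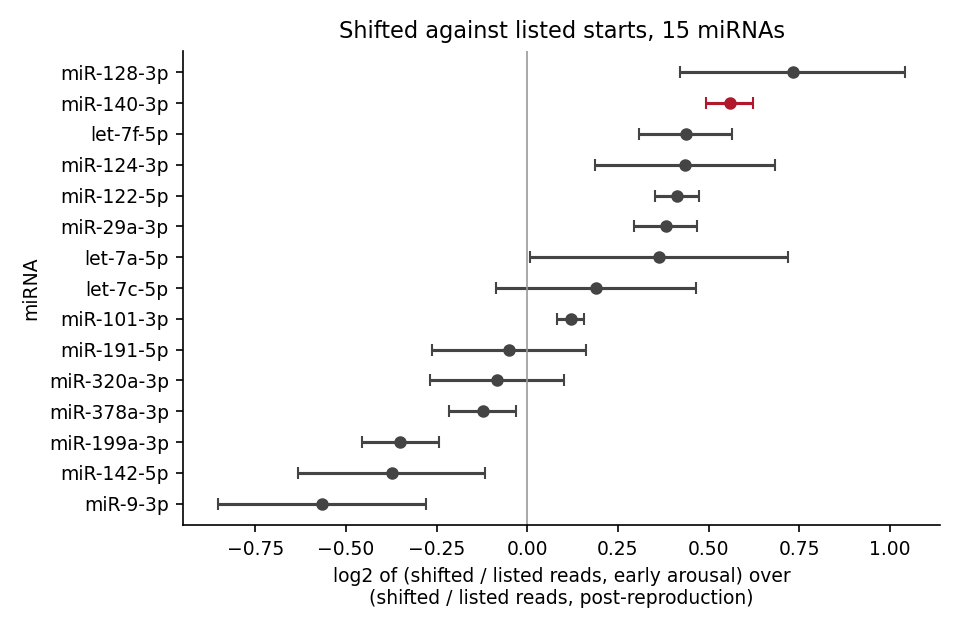
Log2 odds ratio of shifted against listed starts between early arousal and post-reproduction (x axis) for miR-140-3p, in red, and the 14 other miRNAs with enough reads of both kinds (y axis), with 95% intervals for counting error. miR-140-3p lies at 0.56, below miR-128-3p at 0.73, and the lowest is miR-9-3p at -0.57.

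Some miRNAs are known in mammals for alternative starts, and 8 of them were listed for comparison. Only 4 had enough reads for a ratio, miR-101-3p, miR-142-5p, miR-124-3p and miR-10a-5p. The shifted share of miR-124-3p was 16.2% in early arousal, 14.4% in late torpor and 12.5% in post-reproduction. That of miR-10a-5p was 18.2%, 14.0% and 10.9%. With miR-101-3p, 3 of the 4 thus had their highest share in early arousal and their lowest in post-reproduction, as for miR-140-3p. By contrast, miR-142-5p had its lowest share in early arousal. The 4 others, miR-142-3p, miR-133a-3p, miR-183-5p and miR-223-3p, had at most 18 reads in a library. A higher share in early arousal was common beyond this list. Of the 40 other miRNAs with at least 1000 reads in each library, 27 had a higher share in early arousal than in post-reproduction. Against late torpor, 25 of the 40 had a higher share in early arousal. In late torpor, 24 of the 40 were above post-reproduction. For miR-101-3p and miR-124-3p, the odds ratio of late torpor to post-reproduction had an interval that held 1.

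The stage pattern of summed miR-140-3p, with log2 ratios to post-reproduction of -0.17 in early arousal and -0.33 in late torpor, was nearest to that of 3 other miRNAs among 54. The first, miR-33-5p, known from an intron of the sterol regulator gene Srebf2, had -0.17 and -0.38. The next was miR-199a-3p, a mesenchymal and stellate cell miRNA, with -0.16 and -0.28. The third was miR-221-3p with -0.28 and -0.23. Each likeness rests on 2 ratios that share 1 library.

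Markers of the cells in the tissue were read beside these values, with all starts summed as for miR-140-3p. The hepatocyte miRNA miR-122-5p was the leading one, at 741067 CPM in early arousal, 851335 CPM in late torpor and 805772 CPM in post-reproduction. Mesenchymal and stellate markers, of which miR-199a-5p had 0 reads, summed to 4809, 3822 and 4701 CPM in early arousal, late torpor and post-reproduction. Of these, miR-143-3p was highest in early arousal and miR-199a-3p in post-reproduction. Erythroid markers summed to 143.7, 309.9 and 187 CPM in early arousal, late torpor and post-reproduction. Of these, miR-451a-5p had more reads in early arousal than in post-reproduction, 449 against 356. By contrast, miR-144-3p had fewer, 71 against 112, as did miR-486-5p, 269 against 507. Leukocyte markers summed to 320.4 CPM in early arousal, 469.7 CPM in late torpor and 319 CPM in post-reproduction. Nearly all of the leukocyte sum was miR-142-5p, with 1741, 2444 and 1650 reads in the same order. The other members had few reads, 7, 9 and 1 for miR-142-3p and 11, 16 and 18 for miR-223-3p. The count of miR-223-3p was thus highest in post-reproduction. From listed starts alone the leukocyte sums were 62.5, 88.8 and 51.9 CPM, since most miR-142-5p reads are shifted. The erythroid and leukocyte sums were thus highest in late torpor, where summed miR-140-3p was lowest, and the part of cell makeup in the miR-140-3p values was not tested.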

How the data were processed

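The authors deposited 1 table of scaffold positions. Per the file headers, its text entries hold a sequence, a whole-number read count and a stage, and are used as deposited. The read length is 30 bases throughout. Neither aligner, filters nor build could be stated from the sources used here. Per the labels' protocols, RNA of 18 to 30 nt was cut from a gel and amplified by 15 PCR cycles. Reads carry no molecular identifiers, so PCR copies of 1 molecule could not be told from separate molecules. Intervals cover counting error only, with each read taken as independent, and can be too narrow where copies were counted.

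A sequence listed at several positions was counted 1 time in a stage. The libraries hold 5611673, 5860476 and 5614441 placed reads in early arousal, late torpor and post-reproduction. Of these, 92.1%, 94.8% and 93.4% matched a listed miRNA at its listed start. A count of 3 reads is 0.547, 0.571 and 0.574 CPM. The site of miR-140 was found from the first 8 bases of each arm, and its sequence was then read from the table. The 145 other miRNAs were matched by 20-base sequences written from general knowledge and not checked against a database. Near-identical relatives can exchange reads.

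The counts sit in text, so trimmed mean of M-values factors (1.06, 0.946 and 0.996) were computed by own code, with 30% trimmed on ratio and 5% on abundance, in Python 3.11.15 with numpy 2.4.6 and scipy 1.17.1. Figures used matplotlib 3.10.9. Shares have exact Clopper-Pearson intervals, ratios exact conditional binomial ones, share differences Newcombe intervals, and quotients and odds ratios Woolf intervals. For inserts of 18 to 26 nt, an adapter match could hold 1 mismatch per 5 bases. The code was tested on simulated data.

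Named forms were the starts from 2 bases early to 2 bases late, the 6 most abundant inserts and the most abundant of each start, miR-140-5p, the 3 miRNAs nearest in ratios, the 3 most shifted and the listed markers. Other miRNAs, such as those extreme in a range or with a large change from few reads, are named for their values. The miRNA and the lists were chosen with earlier results of these data known. Alternatives were other scalings, other matching rules, adapter filters, a minimum read number and placement at 1 position.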

Additional observations from a re-analysis of the deposited data

How the results depend on the processing

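No paired analysis was possible because each stage has 1 library. The +1 form between early arousal and post-reproduction, at -0.026 with an interval that holds 0, changed sign under some settings. The other log2 ratios recomputed, over all starts and for the listed and +1 forms, kept their sign, but that of the listed form in early arousal over late torpor had an interval of -0.086 to 0.033 relative to miRNA reads. The +2 form was not recomputed, and its log2 ratio of -0.017 in early arousal over post-reproduction is smaller in size than the shift of 0.072 from scaling to placed reads, so it has no stable direction. The difference in +1 share stayed between 6.84 and 7.92 percentage points for early arousal against post-reproduction, 0.971 and 1.58 for late torpor against post-reproduction and 5.87 and 6.35 for early arousal against late torpor. Ratios moved mainly with scaling. Relative to placed reads, log2 ratios over all starts were -0.10 (early arousal over post-reproduction), -0.39 (late torpor over post-reproduction) and 0.29 (early arousal over late torpor), those of the listed form -0.51 and -0.068 (early arousal over post-reproduction and over late torpor), and those of the +1 form 0.046, -0.36 and 0.41. Relative to miRNA reads they were -0.080, -0.41 and 0.33 over all starts, -0.49, -0.46 and -0.027 for the listed form, and 0.066, -0.38 and 0.45 for the +1 form. Median-of-ratios scaling gave -0.29 over all starts and -0.26 for the +1 form in late torpor over post-reproduction. With 20 shared bases, the listed form passed 1.5-fold in early arousal over post-reproduction, at -0.60. Reads with a found adapter gave -0.13 and -0.26 over all starts and 0.025 and -0.23 for the +1 form (early arousal and late torpor over post-reproduction), and -0.33 for the listed form in late torpor. Distinct reads with at least 2 reads gave -0.29 over all starts and -0.27 for the +1 form in late torpor over post-reproduction. A filter to adapters free of mismatches, chosen after seeing the data, gave 0.13 over all starts in early arousal over late torpor. A minimum of 1000 reads left 7, 4 and 5 other miRNAs at least 1.5-fold apart in these comparisons, against 15, 9 and 12 at 100 reads, since fewer were compared. Apart from these settings, the cause of each move was not tested.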

Other observations

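Starts further inside the arm were outside the choice of members and are given as values. At the same site, reads that began 3 bases after the listed base numbered 28 in early arousal, 16 in late torpor and 21 in post-reproduction. Reads that began 4 bases after it numbered 28, 21 and 26. Another 2 reads began at base 142273, the last base of the miR-140-5p form.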
